A study of Mus musculus with 30 samples.

Results

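Transforming growth factor beta (TGF-beta) genes were examined in mouse tail fibroblasts exposed to 8 small molecules. The set held 9 of the 29861 genes of the table: the ligand genes Tgfb1, Tgfb2 and Tgfb3, the receptor genes Tgfbr1 and Tgfbr2, the signal transducer Smad3, the feedback inhibitors Smad7 and Skil, and Ltbp1, which encodes a latent TGF-beta binding protein. They were chosen by name, through the match of their Ensembl identifiers to symbols in the GENCODE M21 annotation of the GRCm38 mouse genome. All 9 passed the filter on low values, a level of at least 1 TPM (a share of all transcripts, corrected for their length) in at least 3 libraries, as did 13644 genes in all.

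The cells were CCG-HTA-1, a primary line from the tails of UMHet3 mice, used at passage 4. Antimycin A, Dihydrorotenone, Diphenyleneiodonium Cl, Cardamonin, BerberineA, Clofilium tosylate, AEG 3482 and Podofilox each had 3 libraries, and the solvent DMSO had 6, although the series text gives 5. RNA was taken after 48 h of exposure, which began 24 h after seeding, and ribosomal RNA was removed. Antimycin A and Dihydrorotenone inhibit respiratory chain complexes, Diphenyleneiodonium Cl inhibits flavoenzymes, Cardamonin is a chalcone found in plants, Clofilium tosylate blocks potassium channels, and Podofilox prevents microtubule assembly. The donor mice were 5 to 8 weeks old by the labels, except that the label of Dihydrorotenone replicate 1 gives 8 to 11. Doses were not used here, since the labels do not state them, so differences between compounds hold for the unstated doses of the study. All libraries came from 1 cell line and nothing says that replicates were separate cultures, so p-values measure the spread between these libraries, which may be technical. In bulk RNA, fewer cells of a type and less RNA per cell cannot be told apart.

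TGF-beta ligands are made as latent complexes that latent binding proteins such as LTBP1 tie to the extracellular matrix, and integrins and thrombospondin help to release them. A free ligand dimer binds the type II receptor TGFBR2, which recruits and phosphorylates the type I receptor TGFBR1, which in turn phosphorylates SMAD2 and SMAD3. In fibroblasts the pathway is known for driving contractile and matrix genes, and it induces its own inhibitors, SMAD7, which targets the receptors, and SKIL (SnoN), which represses Smad target genes.

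All 10 fibroblast markers were above 1 TPM in every group, whereas the keratinocyte markers Krt5, Krt14, Krt1, Epcam and Cdh1 summed to at most 0.124 TPM per library, with Krt5 at 0 in all of them. Skeletal muscle markers summed to at most 0.821 TPM, with Myod1 at 0, and the endothelial markers to at most 2.35 TPM. Of 4 cartilage and tendon markers, 3 were above 1 TPM in every group, with Tnmd at 33.4 to 77.2 TPM, Scx at 7.44 to 20.8 TPM and Sox9 at 3.13 to 7.29 TPM over all libraries, and Acan at or below 0.0120 TPM. Their sum was 81.7 to 89.2 TPM with DMSO, 46.7 to 54.0 TPM with Cardamonin and 55.1 to 59.5 TPM with Podofilox. Other markers also moved with the groups. The 10 fibroblast markers summed to 4800 to 5967 TPM with Cardamonin against 11949 to 13543 TPM with DMSO. With AEG 3482 they summed to 13057 to 14424 TPM. With every other compound the sums lay below the DMSO range, between 9036 and 11527 TPM. The 5 macrophage and blood cell markers, mostly Lyz2, summed to 53.0 to 129 TPM in treated libraries against 154 to 209.9 TPM with DMSO. Over all libraries, Cd68 ran from 11.5 to 41.4 TPM and Adgre1 from 1.62 to 12.1 TPM. Csf1r ran from 0.698 to 3.46 TPM and Ptprc from 0.239 to 0.876 TPM. The melanocyte list, mostly Mlana, summed to 4.54 to 6.93 TPM with DMSO, between 1.27 and 2.22 TPM with Cardamonin and AEG 3482, and up to 18.6 TPM with Antimycin A, with Dct at or below 0.0468 TPM. The part of these shifts in the results below was not tested. Library numbers ran consecutively within each group, so group and library batch cannot be told apart. TPM values hold no read totals, so the depth of the libraries is unknown.

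In DMSO the 9 genes spanned less than an order of magnitude. On the TPM scale, which corrects for transcript length, Tgfbr2 had the highest level at 99.9 ± 5.99 TPM (SD, n = 6), followed by Tgfb1 at 57.5 ± 3.83, Ltbp1 at 48.5 ± 4.06 and Tgfb3 at 43.2 ± 4.34 TPM. Smad3 stood at 30.2 ± 1.39 TPM and Tgfbr1 at 22.4 ± 2.73 TPM. The lowest levels were those of Smad7 at 14.8 ± 1.95, Tgfb2 at 13.1 ± 0.890 and Skil at 11.3 ± 1.14 TPM. Tgfb1 was therefore the most abundant ligand transcript in unexposed cells and Tgfb2 the least, and the type II receptor exceeded the type I receptor.

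**Figure D1:**
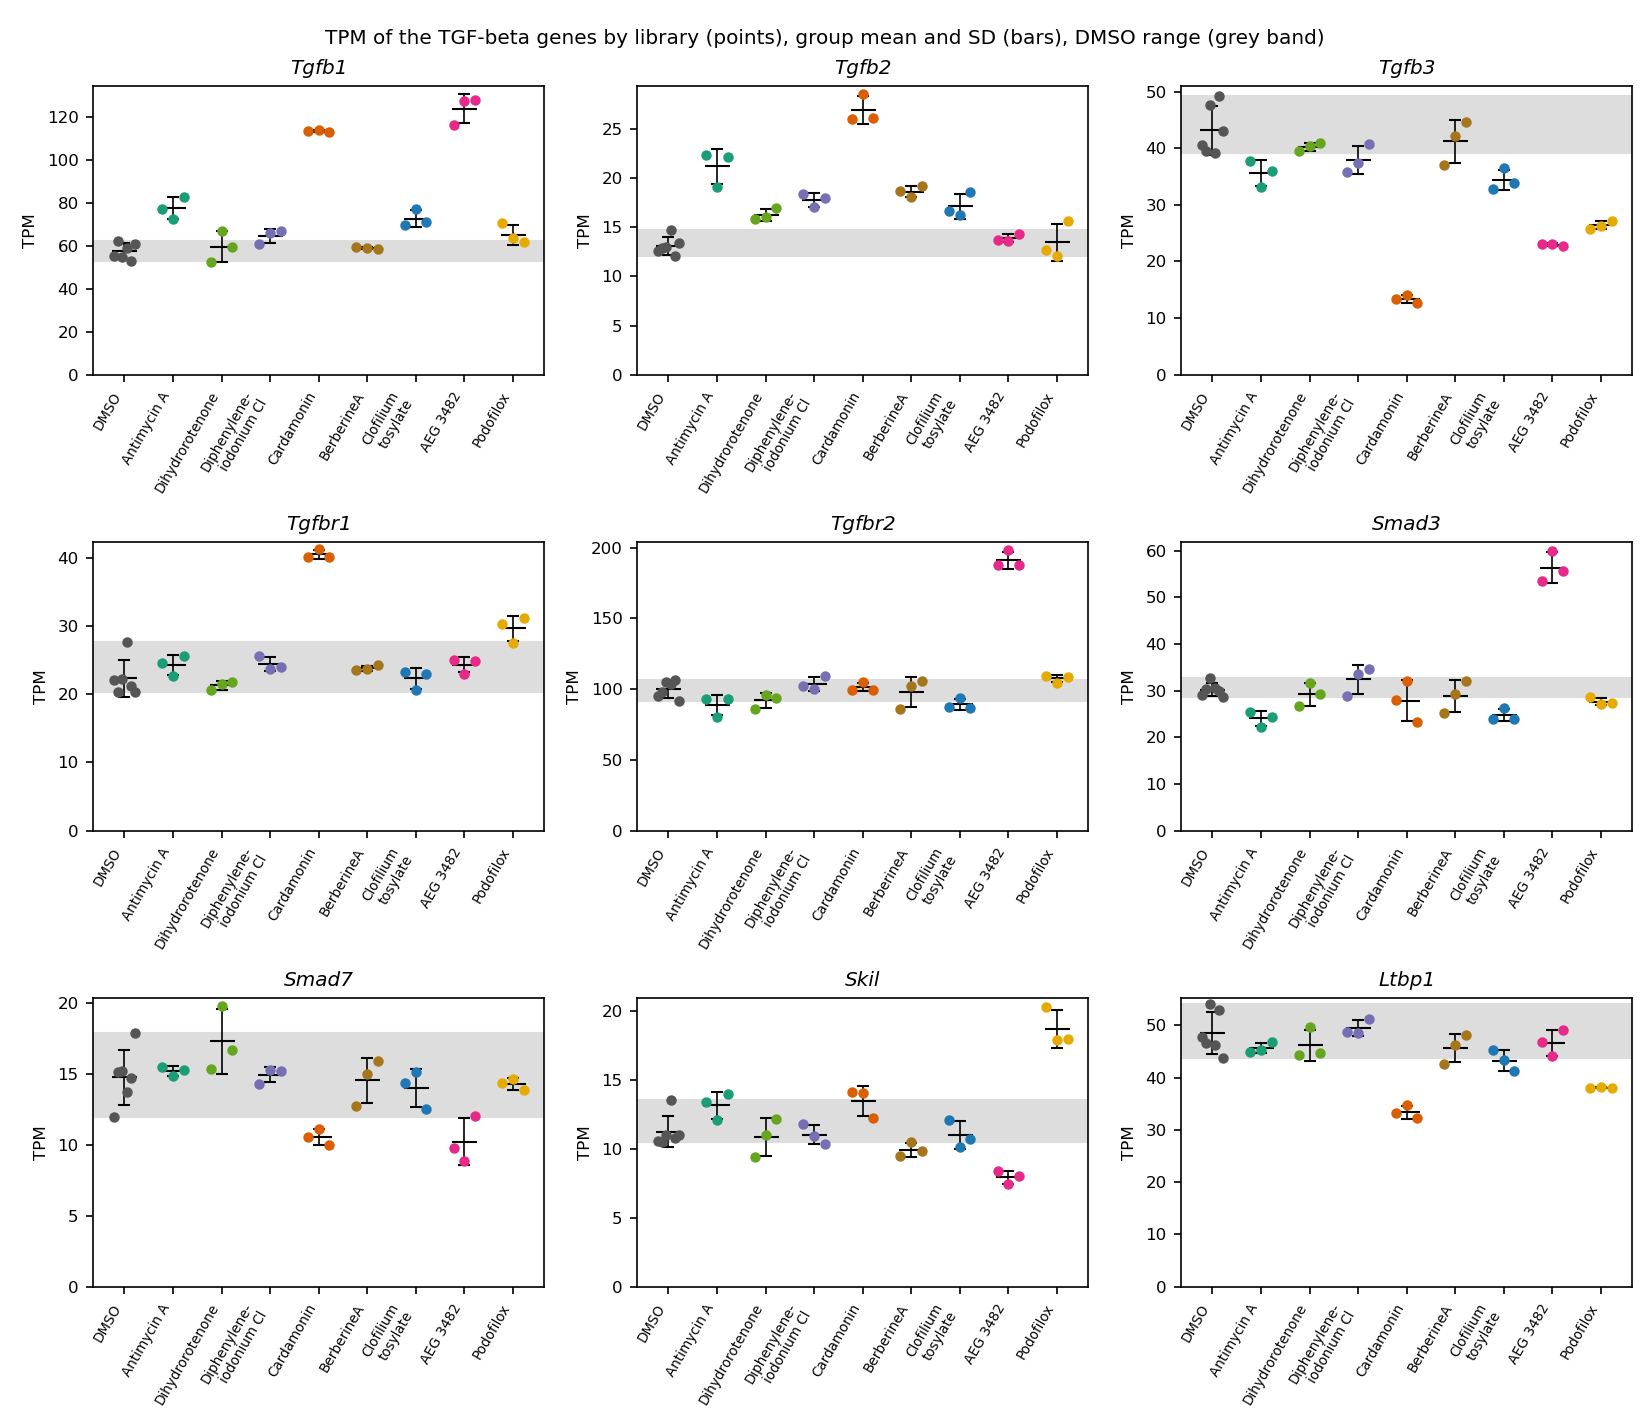
TPM of the 9 genes in each of the 30 libraries (points), with group means and SDs (bars) and the range of the 6 DMSO libraries (grey band). All Cardamonin libraries lie above the DMSO band for Tgfb1, Tgfb2 and Tgfbr1 and below it for Tgfb3, Smad7 and Ltbp1. All AEG 3482 libraries lie above it for Tgfb1, Tgfbr2 and Smad3 and below it for Tgfb3 and Skil. The share of all genes outside that range was not counted, and these compounds changed 70.3% and 68.1% of all tested genes. Both compounds lie outside the band for Tgfb3 and Tgfb1, the latter at 113 to 128 TPM against at most 62.3 TPM in DMSO.

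Each compound was compared with DMSO by limma on log2(TPM + 1), with Benjamini-Hochberg adjustment over all 13644 tested genes and a threshold of 0.05. All fold changes refer to log2(TPM + 1), where low levels make a change look smaller: little for these 9 genes, and more for a gene that falls to a few TPM, such as Acta2 below. Cardamonin changed 7 of the 9 genes, 4 higher and 3 lower, beside 70.3% of all tested genes (37.3% higher, 33% lower). AEG 3482 changed 6, with 3 higher and 3 lower, beside 68.1% of all (41.3% higher, 26.8% lower). Both shares are near their background. Antimycin A changed 6 genes, 3 higher and 3 lower, beside 37.3% of all (21.8% higher, 15.5% lower). That count ran from 4 to 7 when 1 library was left out. Podofilox changed 5, with 3 higher and 2 lower, beside 46.2% (26.2% higher, 20% lower). Clofilium tosylate changed 5, with 2 higher and 3 lower, beside 23.4% (10.9% higher, 12.5% lower), a count that became 3 without Clofilium tosylate replicate 3.

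Dihydrorotenone, Diphenyleneiodonium Cl and BerberineA each changed 1 gene, in all cases a rise of Tgfb2. Over all genes, Dihydrorotenone changed 14.4% (4.95% higher, 9.43% lower), Diphenyleneiodonium Cl 25.7% (14% higher, 11.7% lower) and BerberineA 21.7% (12.6% higher, 9.16% lower). Of the Dihydrorotenone calls over all genes, 34.4% were higher, a share that became 53.7% under median-ratio scaling and 47.2% under quantile normalization. With Diphenyleneiodonium Cl the count rested on genes near the threshold: Tgfb1 at 0.17 and Tgfb3 at -0.18 on the log2 scale each had a limma adjusted p of 0.0547, and the count reached 3 without DMSO replicate 2 or without DMSO replicate 4, and 2 without DMSO replicate 1 or 6 or without Diphenyleneiodonium Cl replicate 1 or 3. The Dihydrorotenone count became 2 without DMSO replicate 6 and the BerberineA count 2 without DMSO replicate 4. Median log2 changes of the 9 genes lay close to those of all genes, for instance 0.02 against 0.03 with Cardamonin and 0.08 against 0.10 with AEG 3482, since rises and falls were mixed within the set.

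**Figure D2:**
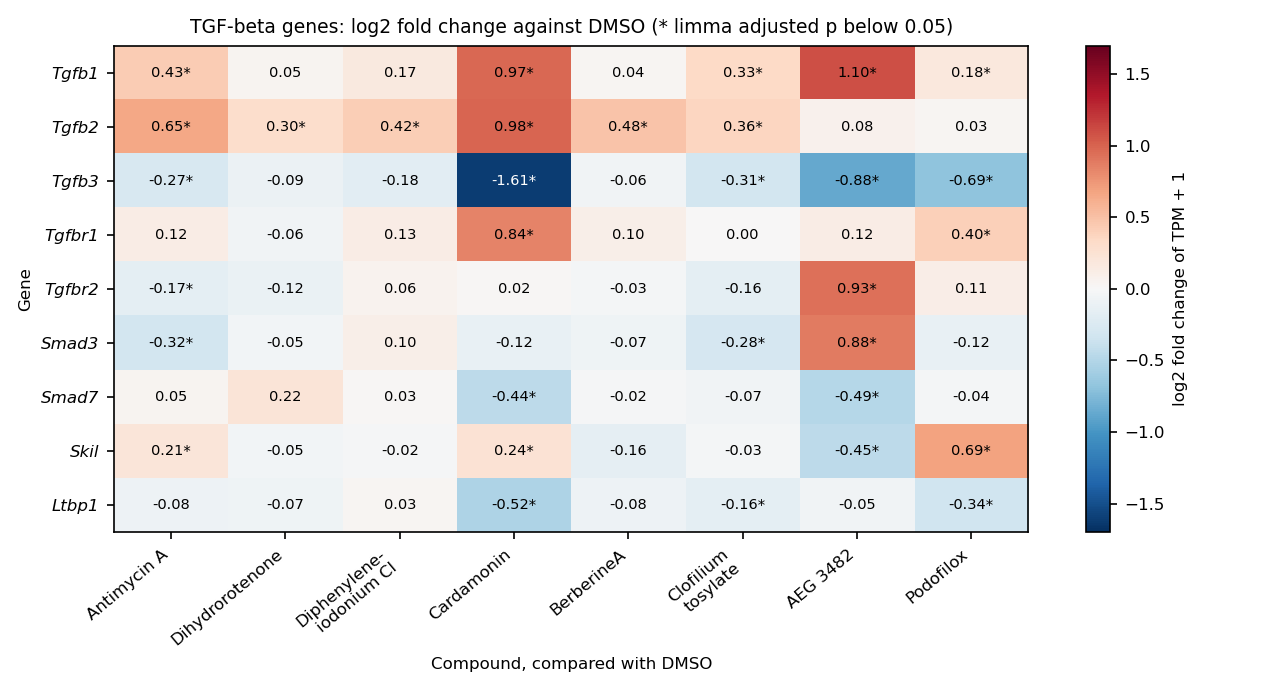
Log2 fold change against DMSO of each of the 9 genes (rows) with each compound (columns), colour showing direction and size, and stars marking a limma adjusted p below 0.05. The strongest cell is the fall of Tgfb3 with Cardamonin (-1.61), and the Tgfb2 row is red in 6 of 8 columns at the threshold.

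The ligand genes moved apart from one another. Tgfb1, which encodes the most widely expressed ligand, rose with 5 compounds, Tgfb2 rose with 6, and Tgfb3 fell with 5 and rose with none. No ligand gene was called in the opposite direction to these with any compound.

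Tgfb1 (ENSMUSG00000002603, chr7:25687002-25705077, plus strand) ranged from 52.9 to 62.3 TPM in DMSO, with a median of 57.0 TPM. AEG 3482 gave 116, 128 and 128 TPM, and Cardamonin gave 114, 114 and 113 TPM. Every library of both compounds was above every DMSO library. The log2 change was 1.10 (SE 0.0630, limma adjusted p = 6.06e-14) with AEG 3482 and 0.97 (SE 0.0630, adjusted p = 3.84e-13) with Cardamonin, a 2.14-fold and a 1.96-fold rise. Antimycin A libraries at 77.4, 72.6 and 82.7 TPM and Clofilium tosylate libraries at 69.6, 77.2 and 71.2 TPM also lay above the DMSO range. Their smaller rises were 0.43 and 0.33 on the log2 scale (limma adjusted p = 6.08e-06 and 2.95e-04).

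Podofilox overlapped the DMSO range for Tgfb1, with libraries at 70.5, 63.6 and 61.6 TPM and a log2 change of 0.18 (limma adjusted p = 0.0214). That call was lost without Podofilox replicate 1, where the change was 0.12 with a limma adjusted p of 0.178. In the order of group means, AEG 3482 and Cardamonin did not differ beyond their spread (0.12, limma adjusted p = 0.158), Cardamonin exceeded Antimycin A by 0.55 (adjusted p = 3.41e-07), and no later neighbours differed with all libraries and the deposited scaling. Clofilium tosylate and Podofilox, at 0.15 in that fit, differed by 0.19 under median-ratio scaling (limma adjusted p = 0.0257), by 0.19 under quantile normalization (adjusted p = 0.0238) and by 0.21 without Podofilox replicate 1 (adjusted p = 0.0430).

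Tgfb2 (ENSMUSG00000039239, chr1:186622792-186705989, minus strand), a ligand gene with roles in heart and craniofacial development, ranged from 12.1 to 14.7 TPM in DMSO, with a median of 12.9 TPM. Cardamonin gave 26.0, 28.6 and 26.2 TPM, the highest of all groups. Antimycin A followed with 22.4, 19.2 and 22.1 TPM. The log2 changes were 0.98 (SE 0.0668, limma adjusted p = 9.80e-13) and 0.65 (SE 0.0668, adjusted p = 2.00e-08), and the difference between both compounds was itself past the threshold (0.33, adjusted p = 5.62e-04).

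Another 4 compounds raised Tgfb2 to means below that of Antimycin A. BerberineA stood at 18.6 ± 0.571 TPM, Diphenyleneiodonium Cl at 17.8 ± 0.683, Clofilium tosylate at 17.2 ± 1.28 and Dihydrorotenone at 16.3 ± 0.613 TPM (SD, n = 3 each). All 12 of their libraries were above the highest DMSO library, with log2 changes of 0.48, 0.42, 0.36 and 0.30 and a highest limma adjusted p of 0.00352, for Dihydrorotenone. Neighbours among these 4 did not differ beyond their spread. Antimycin A exceeded Dihydrorotenone by 0.36 (limma adjusted p = 0.00204) and Clofilium tosylate by 0.29 (adjusted p = 0.0266), whereas its differences from BerberineA (0.18, 95% interval 0.02 to 0.33, adjusted p = 0.176) and Diphenyleneiodonium Cl (0.24, interval 0.08 to 0.40, adjusted p = 0.0661) did not pass the threshold. AEG 3482, at 13.7, 13.6 and 14.3 TPM, lay within the DMSO range (0.08, 95% interval -0.06 to 0.22, limma adjusted p = 0.311) and below Dihydrorotenone, its neighbour in the order, by 0.22 (adjusted p = 0.0156). That difference was no longer called without Dihydrorotenone replicate 3 (0.19, limma adjusted p = 0.0629). Podofilox libraries, at 12.7, 12.04 and 15.6 TPM, lay on both sides of the DMSO libraries (0.03, interval -0.11 to 0.17, limma adjusted p = 0.756).

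The sequences upstream of Tgfb1 and Tgfb2 are shown because both genes rose by a similar factor with Cardamonin, while AEG 3482 raised Tgfb1 and did not change Tgfb2 at the threshold. They are the 250 bases before the annotated start, 5′ to 3′, from RefSeq (GRCm38.p6). The promoter sequences at hand covered 6 of the 9 genes. Capitals mark matches on either strand to motifs searched. For Tgfb1, chr7:25686752-25687001, plus strand, the capitals are GGGCGG, a GC box, or its reverse complement.
Tgfb1: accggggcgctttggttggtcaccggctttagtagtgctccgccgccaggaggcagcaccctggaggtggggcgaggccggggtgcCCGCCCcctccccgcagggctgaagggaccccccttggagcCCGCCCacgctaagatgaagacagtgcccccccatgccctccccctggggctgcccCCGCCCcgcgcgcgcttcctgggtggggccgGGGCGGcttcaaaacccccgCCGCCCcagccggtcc
For Tgfb2, chr1:186705990-186706239, minus strand, the capitals are CAGAC, the Smad box, at 2 places, and CACGTG, an E-box.
Tgfb2: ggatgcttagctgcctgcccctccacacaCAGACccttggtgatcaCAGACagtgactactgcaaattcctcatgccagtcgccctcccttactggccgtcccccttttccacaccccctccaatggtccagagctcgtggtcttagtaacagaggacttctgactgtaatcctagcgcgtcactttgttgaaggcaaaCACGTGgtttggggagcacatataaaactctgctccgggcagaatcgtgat
The Tgfb1 window was 75.2% G or C with 5 GC boxes and no CAGAC, and the Tgfb2 window 53.6% with no GC box, beside a median of 52.4% over all promoters. At least 1 CAGAC was found in 42.2%, GGGCGG in 32.7% and CACGTG in 6.02% of the 32851 promoter windows of this length, so the first and the second motif are common. The other motifs searched, TGANTCA (AP-1), TGACNNNGC (the antioxidant response core), TGACGTCA (the cAMP response element) and the heat shock element, had no match in either window, and no matches overlapped one another. A match of letters is a description of the sequence only.

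Tgfb3 (ENSMUSG00000021253, chr12:86056745-86079041, minus strand), a ligand gene needed for palate fusion, ranged from 39.1 to 49.2 TPM in DMSO, with a median of 41.8 TPM. Cardamonin gave 13.4, 14.2 and 12.6 TPM, AEG 3482 gave 23.1, 23.1 and 22.7 TPM, and Podofilox gave 25.8, 26.2 and 27.2 TPM. These 9 libraries were all far below the lowest DMSO library, in 3 separate bands. The falls were -1.61 (SE 0.0670, limma adjusted p = 4.24e-17), -0.88 (adjusted p = 1.67e-11) and -0.69 (adjusted p = 5.44e-09) on the log2 scale, the first being a 3.06-fold reduction. Cardamonin was below AEG 3482 by 0.74 (limma adjusted p = 1.12e-08), and Podofilox exceeded AEG 3482 by 0.19 (adjusted p = 0.0355), a difference lost in 6 alternatives, among them the fit without Podofilox replicate 3 (0.17, adjusted p = 0.102). Clofilium tosylate, the next above, exceeded Podofilox by 0.37 (limma adjusted p = 4.09e-04).

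Smaller falls of Tgfb3 came with Clofilium tosylate, at 32.9, 36.5 and 33.9 TPM, and Antimycin A, at 37.8, 33.1 and 36.03 TPM. Both groups lay below the DMSO range, with log2 changes of -0.31 and -0.27 (limma adjusted p = 0.00104 and 0.00251). BerberineA and Dihydrorotenone, at 41.3 ± 3.82 and 40.2 ± 0.720 TPM, were within or close to the DMSO range (-0.06, 95% interval -0.20 to 0.08, and -0.09, interval -0.23 to 0.04). Tgfb3 overlaps Ttll5 on the opposite strand, whose own level reached 13.2 TPM at most, and 9.96% of its transcript 31-mers occur in other genes. This was the largest shared fraction among the 9 genes, with the others at or below 2.34%, so part of the Tgfb3 level could be divided with other transcripts by the quantification.

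The 3 ligand genes moved in different directions, so the mix of ligand transcripts shifted. The Tgfb1 share, the Tgfb3 share and the ligand sum lay furthest from DMSO with Cardamonin and AEG 3482. In DMSO, Tgfb1 made up 50.5% ± 3.08 (SD, n = 6) of the summed ligand TPM, Tgfb3 37.9% ± 3.56 and Tgfb2 11.5% ± 0.819. With Cardamonin the Tgfb3 share was 8.69% ± 0.363 (SD, n = 3), the Tgfb2 share 17.5% ± 0.654 and the Tgfb1 share 73.8% ± 0.939. With AEG 3482 the Tgfb1 share reached 77.1% ± 0.963, with Tgfb3 at 14.3% ± 0.691 and Tgfb2 at 8.63% ± 0.356. Cardamonin thus held the lowest Tgfb3 and the highest Tgfb2 share of the 9 groups, and AEG 3482 the highest Tgfb1 and the lowest Tgfb2 share. Antimycin A, Clofilium tosylate and Podofilox had mean Tgfb1 shares of 57.7%, 58.5% and 62.1% and mean Tgfb3 shares of 26.5%, 27.7% and 25.1%. All their libraries lay outside the DMSO ranges, 46.3% to 54.3% for Tgfb1 and 34.4% to 43.1% for Tgfb3. Diphenyleneiodonium Cl did so for Tgfb3 alone, and Dihydrorotenone and BerberineA for neither. Summed ligand TPM was 113.8 ± 3.12 with DMSO, 154 ± 2.47 with Cardamonin and 161 ± 6.61 with AEG 3482. It was 134 ± 8.47 with Antimycin A, 124 ± 5.38 with Clofilium tosylate and 105 ± 3.62 with Podofilox. These shares are given as a description with no test.

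**Figure D3:**
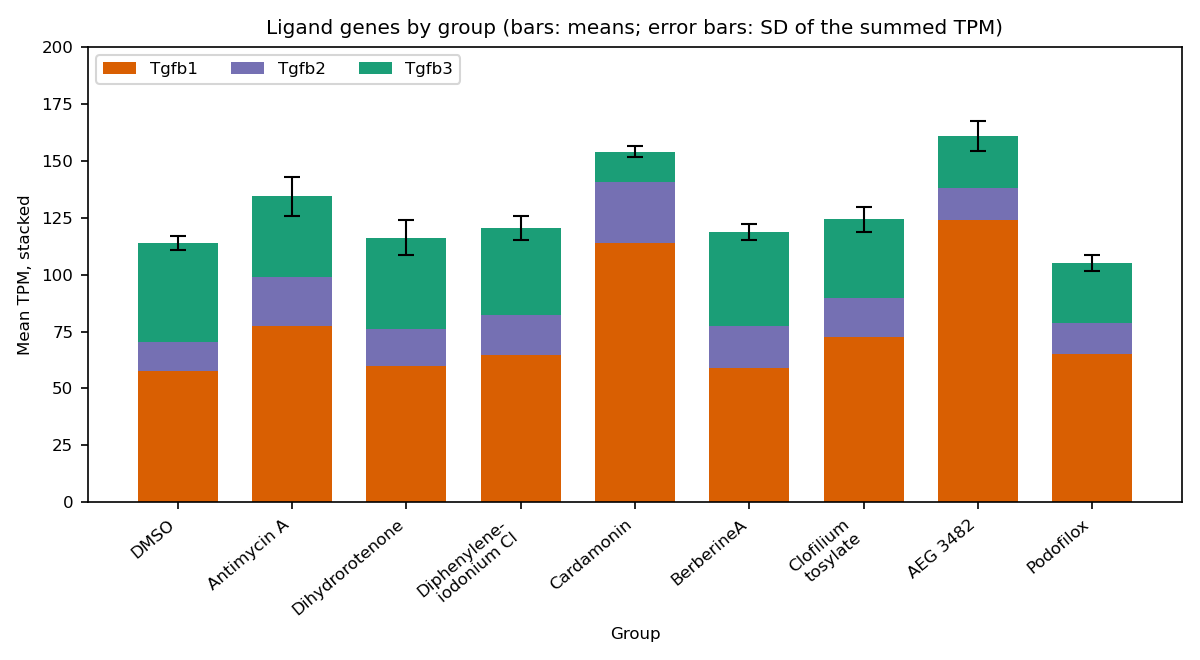
Stacked mean TPM of Tgfb1, Tgfb2 and Tgfb3 in each group, with the SD of the summed TPM over the 3 libraries of each compound or the 6 of DMSO as error bars. The Tgfb3 segment shrinks from 43.2 TPM in DMSO to 13.4 TPM with Cardamonin, while the Tgfb1 segment grows from 57.5 TPM to 114 TPM with Cardamonin and 124 TPM with AEG 3482.

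The receptor genes split between the compounds. Tgfbr1 (ENSMUSG00000007613, chr4:47353222-47414931, plus strand), the type I receptor kinase that phosphorylates Smads, ranged from 20.4 to 27.7 TPM in DMSO, with a median of 21.7 TPM. Cardamonin gave 40.2, 41.3 and 40.2 TPM, above every other library of the series. Podofilox gave 30.3, 27.6 and 31.2 TPM, of which the second lay just under the highest DMSO library. Rises of 0.84 (SE 0.0674, limma adjusted p = 2.84e-11) and 0.40 (SE 0.0674, adjusted p = 2.35e-05) on the log2 scale passed the test, and Cardamonin exceeded Podofilox by 0.44 (adjusted p = 2.84e-05). Podofilox in turn exceeded Diphenyleneiodonium Cl, the next in the order, by 0.27 (limma adjusted p = 0.00691).

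No other compound changed Tgfbr1 at the threshold with all libraries in the fit. Their group means lay between 21.3 ± 0.656 TPM with Dihydrorotenone and 24.5 ± 1.03 TPM with Diphenyleneiodonium Cl. This result depended on DMSO replicate 4, the highest control at 27.7 TPM. Without it, Antimycin A (0.18, limma adjusted p = 0.00541), Diphenyleneiodonium Cl (0.19, adjusted p = 0.00554), BerberineA (0.16, adjusted p = 0.0257) and AEG 3482 (0.18, adjusted p = 0.00231) passed as well.

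Tgfbr2 (ENSMUSG00000032440, chr9:116084293-116175360, minus strand), the ligand-binding type II receptor, ranged from 91.4 to 106 TPM in DMSO, with a median of 101 TPM. AEG 3482 gave 188, 198 and 187 TPM, with all 3 libraries far above the other 27. The rise was 0.93 (SE 0.0596, limma adjusted p = 5.28e-13), or 1.91-fold. Cardamonin gave 99.6, 104.9 and 99.7 TPM, all within the DMSO range (0.02, 95% interval -0.10 to 0.15, limma adjusted p = 0.749). The other groups ran from 88.7 ± 7.30 TPM with Antimycin A to 108 ± 2.57 TPM with Podofilox. Antimycin A was called lower (-0.17, limma adjusted p = 0.0264), a call that was lost without Antimycin A replicate 2 (-0.10, adjusted p = 0.250) and in 4 other alternatives, including those without DMSO replicate 3 (-0.15, adjusted p = 0.0527) or 5 (-0.15, adjusted p = 0.0550). Clofilium tosylate was just short of the threshold (-0.16, 95% interval -0.28 to -0.04, limma adjusted p = 0.0529) and passed it in 6 alternatives.

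Cardamonin raised the type I receptor transcript and AEG 3482 the type II receptor transcript, and both contrasts between them were past the threshold. Tgfbr1 was 0.71 higher with Cardamonin than with AEG 3482 (95% interval 0.55 to 0.87, limma adjusted p = 2.11e-08), and Tgfbr2 was 0.91 lower on the log2 scale (difference -0.91, interval -1.05 to -0.77, adjusted p = 3.87e-11). As a description, the Tgfbr2 to Tgfbr1 ratio of TPM was 4.51 ± 0.448 with DMSO (SD, n = 6), 2.50 ± 0.0361 with Cardamonin and 7.87 ± 0.628 with AEG 3482 (SD, n = 3 each), and the latter groups did not overlap the DMSO range of 3.74 to 4.99.

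Smad3 (ENSMUSG00000032402, chr9:63646767-63757994, minus strand), which carries the signal from the receptors to the nucleus, ranged from 28.7 to 32.6 TPM in DMSO, with a median of 30.2 TPM. AEG 3482 gave 53.5, 60.02 and 55.7 TPM, again apart from all other libraries. The rise was 0.88 on the log2 scale (SE 0.0807, limma adjusted p = 5.22e-10), or 1.84-fold. Antimycin A, at 25.5, 22.3 and 24.4 TPM, and Clofilium tosylate, at 24.0, 26.2 and 24.0 TPM, lay below the DMSO range. They were called lower at -0.32 (limma adjusted p = 0.00294) and -0.28 (adjusted p = 0.0125). The second call was lost without Clofilium tosylate replicate 1 (limma adjusted p = 0.0569) or replicate 3 (adjusted p = 0.0595). Podofilox libraries, at 28.6, 27.1 and 27.3 TPM, also lay below the DMSO range but were not called (-0.12, limma adjusted p = 0.229).

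Cardamonin libraries were spread widely for Smad3, at 28.1, 32.2 and 23.3 TPM, around the DMSO range (-0.12, 95% interval -0.29 to 0.04, limma adjusted p = 0.178). Without Cardamonin replicate 2 the change was -0.23 with a limma adjusted p of 0.0197. In the order of group means, AEG 3482 exceeded Diphenyleneiodonium Cl, the next at 32.4 ± 3.14 TPM, by 0.78 (limma adjusted p = 6.18e-08), and no later neighbours differed with all libraries. Cardamonin and Clofilium tosylate, at 0.16 in that fit, differed by 0.28 without Cardamonin replicate 3 (limma adjusted p = 0.0117).

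**Figure D4:**
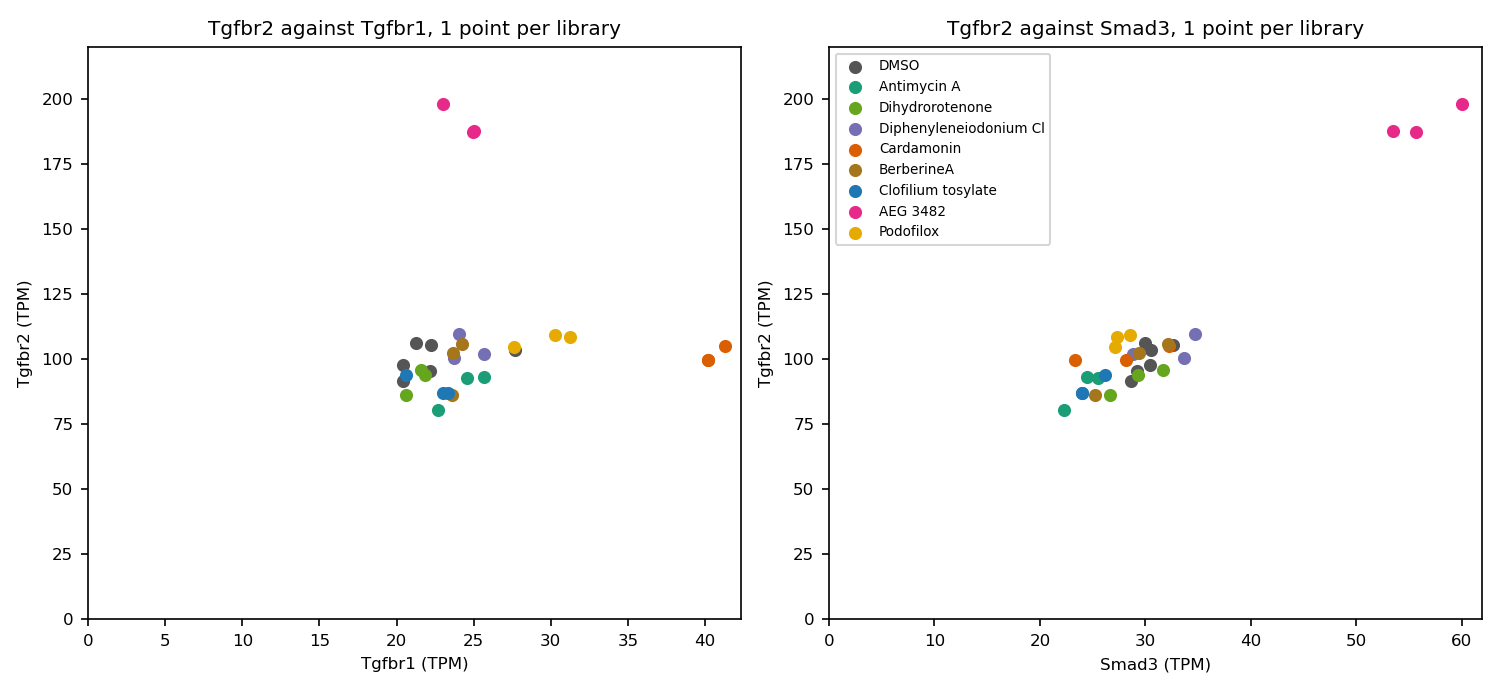
TPM of Tgfbr2 against Tgfbr1 (left) and against Smad3 (right), 1 point per library, coloured by group. The 3 AEG 3482 libraries stand apart at 187 to 198 TPM of Tgfbr2, with 53.5 to 60.02 TPM of Smad3, and the 3 Cardamonin libraries at 40.2 to 41.3 TPM of Tgfbr1.

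Tgfbr2 and Smad3 rose together with AEG 3482, and their upstream windows are shown for that reason, 5′ to 3′ from RefSeq (GRCm38.p6). For Tgfbr2, chr9:116175364-116175613, minus strand, capitals mark CAGAC and a match to TGACNNNGC on the reverse strand.
Tgfbr2: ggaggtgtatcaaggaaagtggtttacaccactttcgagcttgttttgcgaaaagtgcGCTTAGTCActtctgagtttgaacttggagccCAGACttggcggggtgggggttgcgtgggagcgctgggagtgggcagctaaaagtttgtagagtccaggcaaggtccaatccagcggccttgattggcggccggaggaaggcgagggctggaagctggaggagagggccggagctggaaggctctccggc
For Smad3, chr9:63757995-63758244, minus strand, capitals mark GGGCGG.
Smad3: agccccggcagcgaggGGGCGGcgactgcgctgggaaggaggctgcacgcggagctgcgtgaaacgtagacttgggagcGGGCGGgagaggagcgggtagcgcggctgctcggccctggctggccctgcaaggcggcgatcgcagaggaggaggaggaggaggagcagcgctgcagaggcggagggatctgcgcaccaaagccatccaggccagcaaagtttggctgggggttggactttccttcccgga
The windows shared none of the 7 motifs searched. The Smad3 window was 69.2% G or C and held 2 GC boxes, and the Tgfbr2 window was 58.4% and held none. TGACNNNGC occurred in 10.2% of all promoter windows, and also in 1 of the 2 windows listed for Tgfbr1. The part of any motif in these rises was not tested. Of the 2 windows listed for Ltbp1, 1 held TGACGTCA, present in 1.55% of all windows.

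The feedback inhibitors went separate ways. Smad7 (ENSMUSG00000025880, chr18:75367529-75395935, plus strand), which blocks the receptors and recruits ubiquitin ligases to them, ranged from 11.96 to 17.9 TPM in DMSO, with a median of 14.9 TPM. AEG 3482 gave 9.79, 8.88 and 12.04 TPM, and Cardamonin gave 10.6, 11.1 and 10.0 TPM. Cardamonin libraries all lay below the DMSO range, and the highest AEG 3482 library lay just inside its lower end. The falls were -0.49 (SE 0.0950, limma adjusted p = 6.51e-05) and -0.44 (SE 0.0950, adjusted p = 2.12e-04). Both compounds gave the lowest group means, with no difference detected between them (0.05, 95% interval -0.18 to 0.28, limma adjusted p = 0.730).

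The remaining 6 compounds left Smad7 between 14.0 ± 1.34 TPM with Clofilium tosylate and 17.3 ± 2.27 TPM with Dihydrorotenone. None passed the threshold with all libraries. Dihydrorotenone, at 0.22 (95% interval 0.02 to 0.41, limma adjusted p = 0.134), passed without DMSO replicate 6 (0.27, adjusted p = 0.0408).

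Skil (ENSMUSG00000027660, chr3:31095058-31122577, plus strand), whose product SnoN represses transcription by Smad complexes, ranged from 10.5 to 13.5 TPM in DMSO, with a median of 10.9 TPM. Podofilox gave 20.3, 17.9 and 18.0 TPM, and AEG 3482 gave 8.38, 7.43 and 8.02 TPM. Podofilox libraries all lay above and AEG 3482 libraries all below the DMSO range, so these compounds moved the gene in opposite directions. The log2 changes were 0.69 (SE 0.0793, limma adjusted p = 8.00e-08) and -0.45 (SE 0.0793, adjusted p = 1.84e-05).

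Cardamonin, at 14.1, 14.1 and 12.3 TPM, raised Skil by 0.24 (limma adjusted p = 0.00829), with its lowest library inside the DMSO range. Antimycin A, at 13.4, 12.1 and 14.0 TPM, was called at 0.21 (limma adjusted p = 0.0380), and that call was lost in 10 of 20 alternatives, including the fit without Antimycin A replicate 3 (0.17, adjusted p = 0.173). Podofilox exceeded Cardamonin by 0.45 (limma adjusted p = 1.68e-04), and BerberineA, at 9.96 ± 0.507 TPM, exceeded AEG 3482 by 0.29 (adjusted p = 0.00705). Smad7 and Skil, both described as genes induced by TGF-beta, therefore fell together with AEG 3482 but were called in opposite directions with Cardamonin.

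Ltbp1 (ENSMUSG00000001870, chr17:75005568-75392512, plus strand), which anchors latent TGF-beta in the matrix, ranged from 43.8 to 54.1 TPM in DMSO, with a median of 47.2 TPM. Cardamonin gave 33.2, 34.7 and 32.2 TPM, and Podofilox gave 38.0, 38.1 and 38.1 TPM. Both groups lay below all DMSO libraries. The falls were -0.52 (SE 0.0560, limma adjusted p = 6.06e-09) and -0.34 (SE 0.0560, adjusted p = 1.81e-05), and Podofilox exceeded Cardamonin by 0.19 (adjusted p = 0.0166; 0.0677 without Cardamonin replicate 3).

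Clofilium tosylate, at 45.2, 43.3 and 41.2 TPM, was called lower for Ltbp1 at -0.16 (limma adjusted p = 0.0397), a call lost in 6 of 20 alternatives, including the fit without Clofilium tosylate replicate 3 (-0.13, adjusted p = 0.192). AEG 3482, at 46.9, 44.0 and 49.1 TPM, stayed within the DMSO range (-0.05, 95% interval -0.17 to 0.06, limma adjusted p = 0.413). That value depended on the scaling between libraries: it was -0.16 under median-ratio scaling (limma adjusted p = 0.00664) and -0.23 under quantile normalization (adjusted p = 2.12e-04). The pseudogene Gm6276 lies within Ltbp1 and reached 0.362 TPM at most.

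Cardamonin and AEG 3482 changed a similar share of the whole table, and their direct contrast shows where the 9 genes differed between them. Of the 9, 7 differed at the threshold, 3 higher and 4 lower with Cardamonin, beside 55.3% of all tested genes (22.6% higher, 32.7% lower). Higher with Cardamonin than with AEG 3482 were Tgfb2 (0.91, limma adjusted p = 3.05e-10), Tgfbr1 and Skil (0.69, adjusted p = 4.64e-07). Lower were Smad3 (-1.001, limma adjusted p = 1.42e-09), Tgfbr2, Tgfb3 (-0.74, adjusted p = 1.12e-08) and Ltbp1 (-0.47, adjusted p = 8.92e-07). Tgfb1 (-0.12, 95% interval -0.27 to 0.03) and Smad7 (0.05, interval -0.18 to 0.28) were not told apart.

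Other genes of the pathway were read from lists chosen with earlier results of these data known, so their counts are descriptions. The targets list held 20 genes that TGF-beta is known to induce in fibroblasts, and more of them fell than rose with each of the 8 compounds. Cardamonin lowered 17 of 20 and raised 2, so that 95% changed beside 70.3% of all genes, with a median log2 change of -1.36 beside 0.03. Antimycin A lowered 14 and raised 0, or 70.0% beside 37.3% (median -0.46 beside 0.03), and AEG 3482 lowered 14 and raised 2, or 80.0% beside 68.1% (median -0.58 beside 0.10). Diphenyleneiodonium Cl lowered 9 (45.0% beside 25.7%), Clofilium tosylate 8 (40% beside 23.4%) and BerberineA 7 (35.0% beside 21.7%), and none of these raised any. The shares were near those of all genes with Podofilox, which lowered 8 and raised 3 (55.0% beside 46.2%), and with Dihydrorotenone, which lowered 3 and raised 0 (15.0% beside 14.4%).

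The largest falls were in contractile and matricellular genes. Acta2, smooth muscle actin and the usual marker of myofibroblasts, stood at 250.2 ± 42.8 TPM in DMSO (lowest 194, highest 323), at 1.75 ± 0.203 TPM with Cardamonin and at 5.83 ± 0.446 TPM with AEG 3482. No treated library of these compounds came near the DMSO range, and the log2 changes were -6.50 (SE 0.140, limma adjusted p = 1.18e-22) and -5.18 (adjusted p = 1.60e-20). Ccn2, connective tissue growth factor, fell from 127.8 ± 22.9 TPM to 2.10 ± 1.72 TPM with Cardamonin (-5.51, limma adjusted p = 1.74e-18) and 7.16 ± 0.343 TPM with AEG 3482 (-3.96, adjusted p = 2.47e-15). Tagln, the actin-binding protein transgelin, fell from 135 ± 17.5 TPM to 4.87 ± 1.63 TPM with Cardamonin (-4.56, limma adjusted p = 5.16e-18). With Podofilox, Acta2 was at 32.5 ± 10.5 TPM (-2.94), Tagln at 39.0 ± 12.2 TPM (-1.81) and Ccn2 at 44.4 ± 6.45 TPM (-1.50), all past the threshold.

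Not every target followed, as 2 further genes of the list show, which were chosen after their values were seen. Il11, a profibrotic cytokine, was raised by Podofilox alone at the threshold (2.04, limma adjusted p = 5.66e-08), from 4.58 ± 1.13 to 22.4 ± 7.43 TPM. Col3a1, the type III collagen chain, was lowered by 7 compounds and raised by AEG 3482 (0.80, limma adjusted p = 5.68e-08). Col1a1, Col1a2 and Col3a1 also belong to the fibroblast markers whose sum was lowest with Cardamonin, and the part of cell identity in these falls was not tested.

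**Figure D5:**
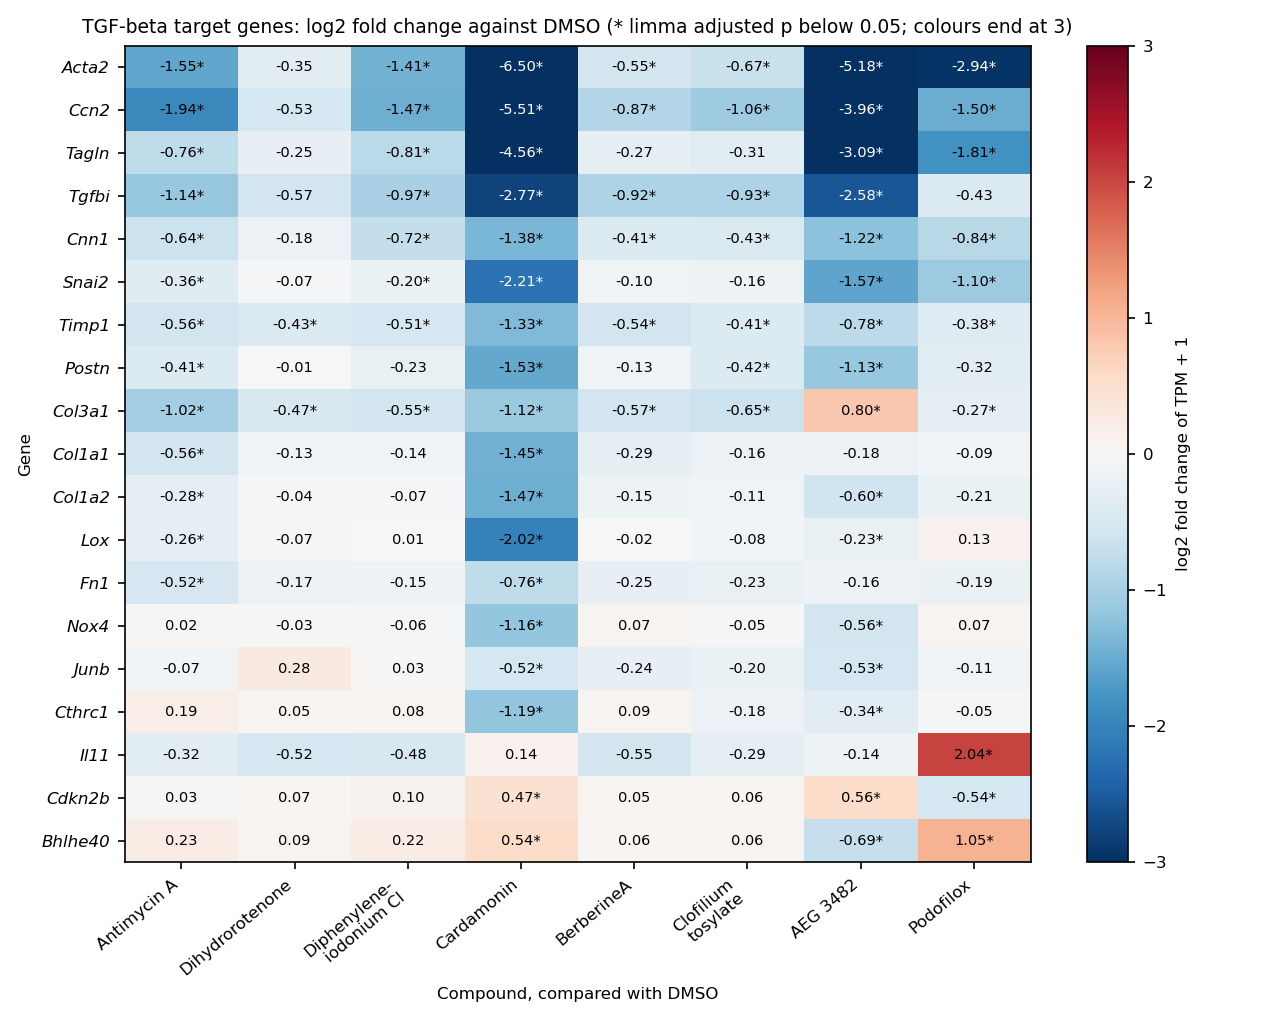
Log2 fold change against DMSO of 19 of the 20 TGF-beta target genes (rows) with each compound (columns), stars marking a limma adjusted p below 0.05, colours ending at 3. Blue dominates the Cardamonin column, with Acta2 at -6.50, and the Podofilox column turns red for Il11 (2.04) and Bhlhe40 (1.05).

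Among 19 tested genes for latency and activation (Itgb6 was under the filter), 12 fell and 3 rose with Cardamonin (78.9% beside 70.3% of all genes), and 9 fell and 6 rose with AEG 3482 (78.9% beside 68.1%), shares near the background. With Antimycin A 7 fell and 2 rose (47.4% beside 37.3%), with Clofilium tosylate 7 fell and 2 rose (47.4% beside 23.4%), and with Podofilox 6 fell and 4 rose (52.6% beside 46.2%). Dihydrorotenone lowered 5 and raised 2 (36.8% beside 14.4%), a count of 7 that became 3 without its replicate 1, 3 without its replicate 2, 4 without its replicate 3, and 3 without DMSO replicate 3 or 5. Diphenyleneiodonium Cl lowered 5 and raised 3 (42.1% beside 25.7%), and BerberineA lowered 4 and raised 2 (31.6% beside 21.7%). Thbs1, thrombospondin 1, an activator of latent TGF-beta, fell with all 8 compounds, from 792 ± 148 TPM in DMSO to 44.3 ± 14.4 TPM with Cardamonin (-4.16, limma adjusted p = 1.99e-18) and 158 ± 23.0 TPM with Podofilox (-2.31, adjusted p = 2.38e-12). The Dihydrorotenone value (-0.47, limma adjusted p = 0.0335) lost its call in several alternatives, among them the fit with Dihydrorotenone and DMSO alone (adjusted p = 0.0700) and the fit without Dihydrorotenone replicate 1 (-0.43, adjusted p = 0.135). Itgb3, the integrin beta chain that pairs with the alpha V chain, rose with all 8, from 4.02 ± 0.456 TPM to 17.1 ± 0.770 TPM with Podofilox (1.85, limma adjusted p = 6.96e-16) and 16.6 ± 1.12 TPM with Cardamonin (1.81, adjusted p = 5.59e-17). The Dihydrorotenone rise of Itgb3 (0.31, limma adjusted p = 0.00776) was lost without Dihydrorotenone replicate 2 (0.26, adjusted p = 0.0632) and with Dihydrorotenone and DMSO alone (adjusted p = 0.0728). Lrrc32, which encodes GARP, a membrane anchor for latent TGF-beta, was at 115 ± 4.89 TPM in DMSO and at 29.2 ± 9.86 TPM with Cardamonin (-2.003, limma adjusted p = 5.60e-14).

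Of 24 tested genes for other receptors, Smads and regulators (Acvr1c was under the filter), 8 rose and 11 fell with Cardamonin (79.2% beside 70.3% of all genes). With AEG 3482 13 rose and 5 fell (75.0% beside 68.1%), and both totals were again near the background. The list medians were -0.07 and 0.21 on the log2 scale, beside 0.03 and 0.10 over all genes. Antimycin A raised 9 and lowered 7 (66.7% beside 37.3%), Podofilox raised 9 and lowered 8 (70.8% beside 46.2%), and Clofilium tosylate raised 6 and lowered 5 (45.8% beside 23.4%). Diphenyleneiodonium Cl raised 5 and lowered 4 (37.5% beside 25.7%), BerberineA raised 4 and lowered 3 (29.2% beside 21.7%), and Dihydrorotenone raised 1 and lowered 2 (12.5% beside 14.4%). Nedd4l, a ubiquitin ligase that acts on activated Smads, rose most, from 3.81 ± 0.298 to 16.02 ± 1.52 TPM with Cardamonin (1.82, limma adjusted p = 7.05e-19). Acvrl1, the alternative type I receptor ALK1, fell from 14.2 ± 2.58 to 3.69 ± 0.805 TPM with Cardamonin (-1.69, limma adjusted p = 1.28e-10). Cav1, caveolin 1, which is tied to receptor internalisation, fell with 7 compounds, most with Podofilox (62.9 ± 7.55 TPM, -1.56, limma adjusted p = 1.33e-13). AEG 3482 raised it from 188 ± 26.3 to 414 ± 25.6 TPM (1.14, limma adjusted p = 1.19e-11), as it did Tgfbr2 and Smad3.

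Across the 9 group means of log2(TPM + 1), the genes most like each of the 9 were found among 2926 tested, named genes that varied by at least 1 on the log2 scale and reached 5 TPM. These Pearson correlations are descriptions over 9 points that share libraries and are dominated by the groups that stand apart. Smad3 had Tgfbr2 among its 3 closest genes (r = 0.961), with Mrm1 (0.962) and Tspan5 (0.955), and Tspan5 was also close to Tgfbr2 (0.977), beside Mthfsd (0.979) and Erc1 (0.974). Tgfb1 was closest to Nasp, Tmtc4 and Raet1e (0.986, 0.985 and 0.982), and Tgfb2 to Nampt, Sord and Uap1l1 (0.969, 0.963 and 0.940). Tgfb3 was closest to Cpxm1, Acadsb and Clec14a, each at 0.995.

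Tgfbr1 was closest to Fam110c, Riok3 and Tmem199 (0.992, 0.978 and 0.975), and Ltbp1 to Armh4, Efemp2 and Pamr1 (0.978, 0.969 and 0.966). For Smad7 the closest were Igf1, Cxcl16 and C3 (0.963, 0.957 and 0.953), all of which had their lowest levels with Cardamonin and AEG 3482, for example Cxcl16 at 7.34 and 9.31 TPM against 51.7 TPM with DMSO. For Skil they were Nr4a2, Bhlhe40 and Zbtb10 (0.964, 0.961 and 0.959), with Bhlhe40, a transcription factor on the targets list, at 98.8 TPM with Podofilox, 28.9 TPM with AEG 3482 and 48.1 TPM with DMSO. Within the set of 9, Tgfb3 was most unlike Tgfbr1 (r = -0.893) and Tgfb1 most unlike Smad7 (r = -0.912).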

How the data were processed

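Gene levels were deposited by the authors as TPM, 1 column per library for 29861 genes. Per the series text, the authors quantified transcripts with kallisto and summed them with tximport, and they tested with DESeq2. The submitters' processing notes name kallisto 0.43.1, FastQC and the build mm10, and the transcript index is not given in the sources used here. The listed genes sum to 927024 to 937134 TPM per library, and depth cannot be recovered. Identifiers were matched to GENCODE M21 (29426 genes, 98.5%).

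Values were taken as log2(TPM + 1), with a pseudocount of 1. The 13644 genes that reached 1 TPM in 3 or more libraries entered a limma fit (version 3.58.1, R 4.3.3) with a mean for each group over all 30 libraries, an intensity trend and no block, and adjusted by Benjamini-Hochberg within each contrast, at a threshold of 0.05. All 36 contrasts between groups were read for the members. The fit was tested on simulated data. Upstream windows came from RefSeq (GRCm38.p6).

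The members, the 4 pathway lists and the 7 marker lists were chosen with earlier results of these data known. Named were the 9 members, the 3 genes of each list with the largest change past the threshold and at least 5 TPM, and the 3 genes most correlated with each member. Some genes of the lists are counted but not reported here by name. Same-numbered replicates did not deviate together (correlations of -0.107 to 0.151 over 108 pairs, 4 over 0.1), so numbers were not taken as pairs. Alternatives changed the pseudocount, filter, scaling, libraries in the fit, moderation and block, and left out each library in turn.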

Additional observations from a re-analysis of the deposited data

Results flagged for a closer look

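Within the 6 DMSO libraries, replicate 4 stood apart from the other 5 for 2 of the 9 genes. It held the highest Tgfbr1 level, 27.7 TPM, with a gap to the next library of 0.749 of the group's range, and the highest Skil level, 13.5 TPM, with a gap of 0.825 of the range, against a critical value of 0.625 for 6 libraries. Chance flags about 1 in 20 groups.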

How the results depend on the processing

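Of the 72 results of a member against DMSO, 32 were called, 27 of these kept their call and direction in every alternative run, 5 lost it in at least 1, 12 of the 40 uncalled gained one somewhere, and 0 reversed. Members called with Diphenyleneiodonium Cl were 3 rather than 1 with a mean of at least 5 TPM, and 2 under median-ratio scaling, under quantile normalization, when rescaled without the 20 most abundant genes, and with the replicate block, where same-numbered replicates were treated as pairs. That block sets the compounds against DMSO replicates 1 to 3 only, since DMSO replicates 4 to 6 have no same-numbered partner. The block moved no other count of members by over 1.5 times, and the numbers had not been found to pair the samples. The BerberineA count was 2 under quantile normalization. With Dihydrorotenone and DMSO alone, 898 genes were called over the whole table rather than 1963. Leaving out 1 library gave 1233 to 2179 of these. Members called then were 1 to 2 with Dihydrorotenone, 1 to 3 with Diphenyleneiodonium Cl and 1 to 2 with BerberineA. They were 3 to 6 with Clofilium tosylate and 4 to 7 with Antimycin A. Of Dihydrorotenone's calls, 34.4% were higher, 53.7% under median-ratio scaling and 47.2% under quantile normalization. Ltbp1 in AEG 3482 against Dihydrorotenone was 0.01 and reversed to -0.13 under median-ratio scaling and -0.19 under quantile normalization. The causes of these shifts were not tested. Counts from the 4 lists moved by over 1.5 times in 6 of 32 cases, and 8 of 71 called results of named list genes were lost somewhere. The alternatives for list genes and for contrasts between compounds were chosen after seeing the data, and contrasts between compounds were not run in fits of 1 compound and DMSO alone. Depth is unknown, so low levels have no counting error.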

Other observations

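The bone morphogenetic protein (BMP) and activin branch of the same superfamily was read from a list of 24 genes, of which 23 were tested (Acvr2b was under the filter). Antimycin A lowered 15 and raised 5, so that 87.0% changed beside 37.3% of all genes, AEG 3482 lowered 14 and raised 7 (91.3% beside 68.1%), and Cardamonin lowered 14 and raised 5 (82.6% beside 70.3%). Their medians were -0.27, -0.72 and -0.75 on the log2 scale beside 0.03, 0.10 and 0.03 over all genes. Diphenyleneiodonium Cl and BerberineA each lowered 13 and raised 2 and Clofilium tosylate lowered 11 and raised 4 (65.2% each, beside 25.7%, 21.7% and 23.4%), and Dihydrorotenone lowered 8 and raised 1 (39.1% beside 14.4%). Podofilox raised 8 and lowered 7 (65.2% beside 46.2%), with a median of -0.03 beside 0.04. Among its secreted antagonists, 2 are given with values. Fst, follistatin, which binds activins, stood at 57.2 ± 3.52 TPM in DMSO (SD, n = 6). It fell to 9.67 ± 2.71 TPM with Cardamonin (SD, n = 3 for each compound; -2.48, limma adjusted p = 6.68e-18) and 13.3 ± 0.798 TPM with AEG 3482 (-2.02, limma adjusted p = 8.19e-16). Grem1, the BMP antagonist gremlin 1, fell from 65.3 ± 6.29 TPM to 12.1 ± 3.54 TPM with Cardamonin (-2.37, limma adjusted p = 4.94e-16) and 11.7 ± 1.08 TPM with AEG 3482 (-2.38, limma adjusted p = 8.28e-16), whereas Podofilox raised it to 87.1 ± 2.95 TPM (0.41, limma adjusted p = 0.00325).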
